A study of Mus musculus with 4 samples.

Results

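The genes of the major histocompatibility complex (MHC) described here are 10 of the 31055 features in the deposited matrices. They were taken by gene symbol from a list. Of these genes 4 belong to class I (H2-K1, H2-D1, B2m and H2-T23) and 6 to class II (H2-Aa, H2-Ab1, H2-Eb1, Cd74, H2-DMa and H2-DMb1), and each symbol matched 1 feature. The cells came from the dissociated hippocampi of 2 male mice with the Dp(10)2Yey duplication, a model of Down syndrome in which a segment of mouse chromosome 10 is present in an extra copy, and of 2 male wild-type (WT) littermates. All 4 mice were 3 months old and on the C57BL/6J background. Each mouse gave 1 droplet library, and the preparation took 2 consecutive days with 1 mouse of each genotype on each day. The sources do not say which replicate numbers share a day, so the day and the mouse cannot be told apart. The series as a whole compares hippocampal cells of the duplication line with those of littermates, and here the comparison is whether the MHC genes differ between the genotypes and in which cells they are found.

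A unique molecular identifier (UMI) marks 1 captured RNA molecule. WT replicates 1 and 2 gave 3002546 and 6848466 UMIs, and Dp(10)2Yey replicates 1 and 2 gave 5112759 and 9612011 UMIs. After removal of barcodes with under 200 genes and of barcodes with over 10% globin UMIs, 1012, 1682, 1350 and 2198 cells were kept, in the same order of libraries. The median depth was 2093 UMIs per cell in WT replicate 1 and 3688.5, 3386.5 and 3671 in the other libraries. Scrublet called 52 cells (0.83%) as doublets, which were kept, and 8 barcode sequences occurred in 2 libraries. Levels are given as CPM, the UMIs of a gene per 1000000 UMIs summed over the cells of a class in a library. Each mean over libraries is given with its standard deviation (SD), with n = 4 libraries for both genotypes together and n = 2 for 1 genotype. Intervals of shares and limits for a count of 0 cover counting error only. The libraries carry the genotype that their labels give: of 30 genes of the duplicated segment with at least 100 UMIs, 28 were higher in both Dp(10)2Yey libraries than in both WT libraries, with a median log2 ratio of 0.59, against 12.7% of 11877 genes elsewhere.

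Class I molecules carry peptides from inside the cell to the surface, where CD8 T cells and natural killer cells read them. H2-K1 and H2-D1 encode the classical heavy chains, H2-T23 encodes the nonclassical heavy chain Qa-1, and B2m encodes the light chain that all of them need to reach the surface. Class II molecules show peptides from endosomes to CD4 T cells and are made mainly by dendritic cells, B cells and some macrophages, in the brain chiefly those of its borders, the meninges, perivascular spaces and choroid plexus.

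Because H2-K1, H2-D1 and B2m were high in the same cells, and H2-Aa and H2-Eb1 in the same few cells, their promoters are shown, from 250 bases before to 50 after the start of the transcript. RefSeq promoters (GRCm38.p6) matched 8 of the 10 members, and those of H2-Ab1 and Cd74 are not shown. The letters searched on both strands were CTGATTGG, the Y box of MHC promoters (CCAATCAG on the other strand), GGGATTCCC, of the kappaB type (GGGAATCCC on the other strand), and, of the interferon-response type, GAAA, any 2 bases and again GAAA (TTTC, any 2 bases and TTTC on the other strand). Of 32851 promoters of the same length, 4.1%, 0.353% and 3.44% hold them. Capitals mark the matches, which do not overlap each other.
H2-K1, chr17:34000284-34000583, minus strand: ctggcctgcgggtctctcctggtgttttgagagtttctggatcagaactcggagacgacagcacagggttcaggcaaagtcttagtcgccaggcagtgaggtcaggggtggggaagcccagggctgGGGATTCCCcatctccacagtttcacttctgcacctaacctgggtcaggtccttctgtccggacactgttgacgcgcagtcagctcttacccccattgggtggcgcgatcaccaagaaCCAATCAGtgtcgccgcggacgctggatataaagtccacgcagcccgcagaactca
H2-D1, chr17:35262844-35263143, plus strand: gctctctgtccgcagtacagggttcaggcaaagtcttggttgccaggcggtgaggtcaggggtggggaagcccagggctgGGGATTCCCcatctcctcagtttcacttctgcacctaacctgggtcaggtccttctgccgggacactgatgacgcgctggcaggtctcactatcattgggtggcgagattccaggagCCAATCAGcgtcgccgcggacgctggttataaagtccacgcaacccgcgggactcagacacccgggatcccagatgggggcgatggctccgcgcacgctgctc
B2m, chr2:122147437-122147736, plus strand: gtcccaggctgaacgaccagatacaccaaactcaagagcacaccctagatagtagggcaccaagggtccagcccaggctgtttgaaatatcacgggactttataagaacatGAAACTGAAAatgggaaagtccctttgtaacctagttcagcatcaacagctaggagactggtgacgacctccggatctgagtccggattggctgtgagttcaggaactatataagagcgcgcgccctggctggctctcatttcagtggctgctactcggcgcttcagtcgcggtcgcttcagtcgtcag
H2-Aa, chr17:34287774-34288073, minus strand: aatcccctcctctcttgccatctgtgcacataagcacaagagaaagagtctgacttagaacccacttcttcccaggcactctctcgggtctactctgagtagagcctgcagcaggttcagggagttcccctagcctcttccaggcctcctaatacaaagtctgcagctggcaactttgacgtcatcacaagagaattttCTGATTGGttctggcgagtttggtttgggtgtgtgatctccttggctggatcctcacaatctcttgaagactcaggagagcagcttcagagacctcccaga
H2-Eb1, chr17:34305617-34305916, plus strand: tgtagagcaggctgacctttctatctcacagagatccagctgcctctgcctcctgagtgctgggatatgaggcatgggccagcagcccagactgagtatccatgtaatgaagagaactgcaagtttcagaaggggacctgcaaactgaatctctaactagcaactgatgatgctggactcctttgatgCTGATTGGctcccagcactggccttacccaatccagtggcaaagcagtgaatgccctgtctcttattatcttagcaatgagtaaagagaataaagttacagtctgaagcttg

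Among the 4 class I promoters, the Y box letters were found in 3, the kappaB-type letters in 2 and the interferon-response-type letters in 2. In H2-K1 the kappaB-type match began 124 bases upstream of the start and in H2-D1 170 bases upstream. The table lists 2 starts for H2-K1, and the promoter shown is the first. At the other start, which is where the annotated gene begins on its strand, that match began 110 bases upstream and the Y box letters 9 bases downstream. The promoter of H2-T23 held TTTCTCTTTC and CCAATCAG, 124 and 52 bases upstream. Of the 4 class II promoters in the table, 2 held the Y box letters (H2-Aa, 51 bases upstream, and H2-Eb1, 62 bases upstream) and 0 held the other letters. Those of H2-DMa and H2-DMb1 held none of the 3 motifs. The starts used for H2-D1, H2-T23, H2-DMa and H2-DMb1 lie inside the annotated genes, downstream of where these begin. A match is a description of the letters and not of a bound site.

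None of the members lies on chromosome 10. In the GRCm38 annotation 8 of them lie on chromosome 17 within 2037 kb, and the 5 class II genes among these span 197 kb. H2-K1 is ENSMUSG00000061232 at chr17:33996017-34000347 on the minus strand, and H2-D1 is ENSMUSG00000073411 at chr17:35262730-35267499 on the plus strand. H2-T23 is ENSMUSG00000067212 at chr17:36029773-36032855 on the minus strand. Of the class II chains, H2-Aa is ENSMUSG00000036594 at chr17:34282744-34287823 on the minus strand, H2-Ab1 is ENSMUSG00000073421 at chr17:34257689-34269419 on the plus strand and H2-Eb1 is ENSMUSG00000060586 at chr17:34305867-34316674 on the plus strand. H2-DMa is ENSMUSG00000037649 at chr17:34119541-34139101 and H2-DMb1 is ENSMUSG00000079547 at chr17:34153072-34160230, both on the plus strand. B2m is ENSMUSG00000060802 at chr2:122147686-122153083 and Cd74 is ENSMUSG00000024610 at chr18:60803848-60812652, both on the plus strand. All are annotated as protein-coding. A 3′ library reads the end of a transcript, and other genes can share its sequence: of the 441 windows of 60 bases in the last 500 bases of the transcript, 30.2% of those of H2-T23 and 18.6% of those of H2-DMb1 also occur in another gene, for H2-T23 a pseudogene of its family and genes unrelated to it, and for H2-DMb1 the gene H2-DMb2. The share was 4.99% for H2-D1 and 0 for the other 7 members, so the counts of H2-T23 and H2-DMb1 are the least certain.

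The cells were grouped by clustering with the MHC genes left out of the genes that drew the clusters, so that the classes were not defined by the members. Names were given where at least 3 of the 10 leading genes were markers of 1 class. The classes were microglia (1994 cells), oligodendrocytes (969), astrocytes (889), neurons (433), oligodendrocyte precursors (387), endothelial cells (266), immature neurons (185), ependymal cells (128), Cajal-Retzius neurons (51) and T and NK cells (26). The endothelial class also had 2 genes of mural cells, Rgs5 and Vtn, among its leading genes. A further cluster of 572 cells led by Ctss, C1qb and Fcer1g, with 5 microglia markers among its leading genes, had a median of only 805.5 UMIs and is called the low-RNA cluster. A cluster of 117 cells was led by S100a9, S100a8 and Pf4. It held 2 border macrophage markers and 2 neutrophil markers among its leading genes and so took no cell type name. It is called the S100a9-Pf4 cluster, with 19 and 27 cells in WT and 16 and 55 cells in Dp(10)2Yey, and no cluster of border macrophages alone was found.

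Class I RNA was highest in microglia, endothelial cells and the immune clusters and low in neurons and oligodendrocytes. Summed over the 4 class I genes, microglia held 2845 and 2931 CPM in WT and 3108 and 2589 CPM in Dp(10)2Yey. The S100a9-Pf4 cluster held 4212 and 4181 CPM in WT and 5031 and 4058 CPM in Dp(10)2Yey, and neurons held 74.7 and 74.5 CPM in WT and 99 and 91.6 CPM in Dp(10)2Yey. The genotypes overlapped in microglia and in the S100a9-Pf4 cluster, while in neurons both Dp(10)2Yey values were the higher. The neurons held a median of 30 and 25.1% mitochondrial UMIs in WT and 34.3 and 18% in Dp(10)2Yey, and in those with up to 20% class I was at 79.8 and 90.8 CPM in WT and 67.5 and 88.8 CPM in Dp(10)2Yey, with overlap. Neurons lay far below microglia and that cluster in each library. By mean over the 4 libraries the order was the S100a9-Pf4 cluster (4371 CPM), the low-RNA cluster (2991), microglia (2868), endothelial cells (2793), oligodendrocyte precursors (394), astrocytes (307), ependymal cells (213), immature neurons (199), oligodendrocytes (113), a cluster led by Ttr (97.9) and neurons (84.9). The ranges of the low-RNA cluster, microglia and endothelial cells overlapped, at 2715 to 3538, 2589 to 3108 and 2533 to 3053 CPM. Oligodendrocyte precursors (375 to 415 CPM) lay apart from both neighbors, and from astrocytes down to neurons each class overlapped the next. Summed over all cells of a library, class I came to 1524 and 1417 CPM in WT and 1425 and 1383 CPM in Dp(10)2Yey, or 1437 ± 60.6 CPM (SD, n = 4). Outside this order stand the classes with under 10 cells in a library. T and NK cells, with as few as 3 cells in a library and in WT with the 4 cells described below that carry B cell markers, held 5711 ± 695 CPM and Cajal-Retzius neurons 91.8 ± 69 CPM. The plot of class I CPM shows each gene by class and library.

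**Figure D1:**
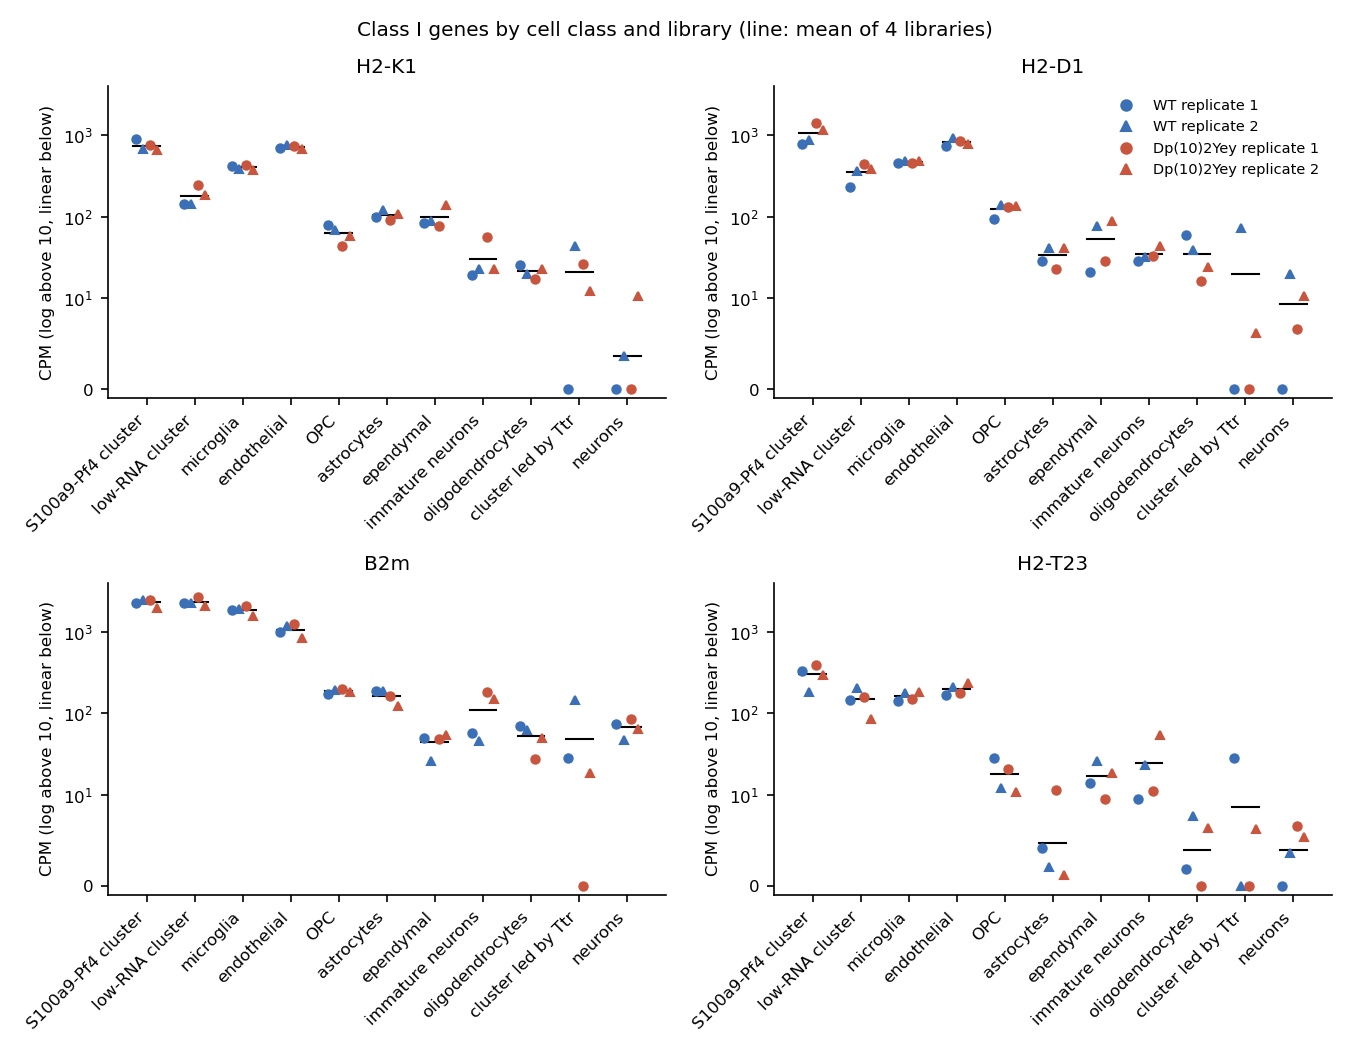
Levels of H2-K1, H2-D1, B2m and H2-T23 in CPM (log scale above 10 CPM, linear below) in each cell class, 1 point per library, with a line at the mean of the 4 libraries. OPC stands for oligodendrocyte precursors. B2m lies at 1549 to 2077 CPM in microglia and at 27.7 to 69.6 CPM in oligodendrocytes, and the points of the genotypes lie among each other in microglia.

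H2-K1, a classical heavy chain, stood at 419.8 and 382 CPM in the WT microglia and 429 and 379 CPM in the Dp(10)2Yey microglia. In endothelial cells it reached 698 and 757 CPM in WT and 731 and 683 CPM in Dp(10)2Yey. The lowest endothelial library lay above the highest microglial one, and the genotypes overlapped in both classes. The S100a9-Pf4 cluster, with a mean of 744 ± 109 CPM (SD, n = 4), overlapped endothelial cells (717 ± 33.5 CPM). Below microglia (402 ± 25.6 CPM) came the low-RNA cluster (179 ± 49.3 CPM), without overlap, and then astrocytes (105 ± 13 CPM), again without overlap. From astrocytes on, each class overlapped the next, down to neurons with 3.6 ± 5.08 CPM, where 2 of the 4 libraries had 0 H2-K1 UMIs.

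H2-D1, the other classical heavy chain, stood at 459 and 485 CPM in WT and 452 and 479 CPM in Dp(10)2Yey microglia. The 4 values lay within 452 to 485 CPM, and WT replicate 2 was the highest. As for H2-K1, the S100a9-Pf4 cluster (1051 ± 284 CPM) and endothelial cells (824 ± 81.3 CPM) overlapped at the top of the order, followed without overlap by microglia (469 ± 16 CPM) and the low-RNA cluster (354 ± 85.7 CPM). Oligodendrocyte precursors held 93.7 and 141 CPM in WT and 133 and 135 CPM in Dp(10)2Yey. Every library of these precursors lay above every library of the classes lower in the order, in which ependymal cells, oligodendrocytes, immature neurons and astrocytes overlapped. Astrocytes held only 29.1 and 41.1 CPM in WT and 23.1 and 41.7 CPM in Dp(10)2Yey, although they came next after the low-RNA cluster for H2-K1.

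The balance of the classical heavy chains by class is given here without a test. Of the UMIs of H2-K1 and H2-D1 together, the share of H2-K1 in astrocytes, with its 95% Wilson interval, was 77.4% (60.2 to 88.6%) and 74.7% (64.1 to 83%) in WT and 79.7% (67.7 to 88%) and 72% (63.6 to 79.1%) in Dp(10)2Yey. In oligodendrocyte precursors it was 45.9% (31 to 61.6%) and 33% (24 to 43.3%) in WT and 25% (16.6 to 35.8%) and 30.2% (22.3 to 39.5%) in Dp(10)2Yey. The astrocyte share was the higher in all 4 libraries, and the intervals of these classes overlapped slightly in WT replicate 1 and lay apart in the other 3. Microglia gave 47.8, 44, 48.7 and 44.1% in the 4 libraries, and endothelial cells gave 48.6, 45.1, 46.1 and 46.7%, so the shares in both were a little under an even split. In oligodendrocytes the shares were 29.8% (18.7 to 44%) and 33.7% (25.2 to 43.3%) in WT and 51.2% (36.5 to 65.7%) and 48.1% (37.6 to 58.9%) in Dp(10)2Yey, with overlapping intervals. The plot of H2-K1 shares gives each class with its intervals.

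**Figure D2:**
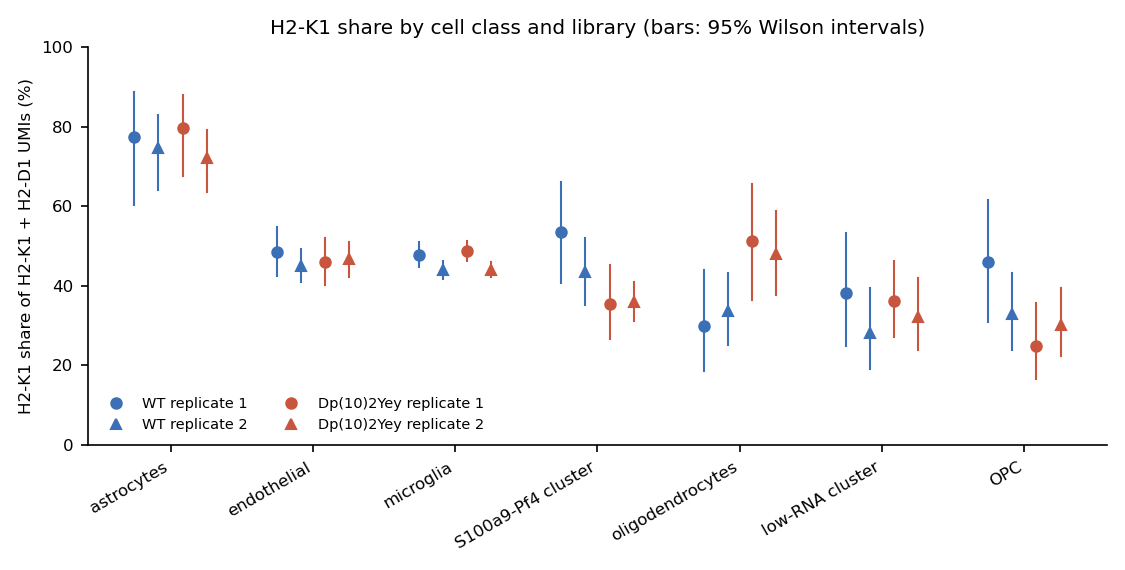
Share of H2-K1 in the summed UMIs of H2-K1 and H2-D1, in percent, per class and library, with 95% Wilson intervals as bars. In astrocytes the 4 libraries lie at 77.4, 74.7, 79.7 and 72%, and in oligodendrocyte precursors (OPC) at 45.9, 33, 25 and 30.2%.

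B2m, the light chain, was at 1825 and 1889 CPM in WT microglia and 2077 and 1549 CPM in Dp(10)2Yey microglia. The Dp(10)2Yey libraries were the highest and the lowest of the 4, so the WT values lay between them. Endothelial cells, with 980.2 and 1166 CPM in WT and 1239 and 837 CPM in Dp(10)2Yey, lay below all microglial libraries, the reverse of the order of these classes for the heavy chains H2-K1 and H2-D1. The low-RNA cluster (2308 ± 270.2 CPM), the S100a9-Pf4 cluster (2277 ± 242 CPM) and microglia (1835 ± 219 CPM) overlapped at the top. Next below endothelial cells came oligodendrocyte precursors (187 ± 11.5 CPM) and astrocytes (164 ± 30.4 CPM), which overlapped each other. Neurons held 74.7 and 47.3 CPM in WT and 85.8 and 64.7 CPM in Dp(10)2Yey, within the range of the low classes. H2-T23 was at 141 and 175 CPM in WT and 151 and 182 CPM in Dp(10)2Yey microglia, with replicate 2 of each genotype above replicate 1. Its ranges overlapped along the order from the S100a9-Pf4 cluster (299 ± 89.4 CPM) through endothelial cells (196 ± 30.2 CPM) and microglia to the low-RNA cluster (149 ± 49.6 CPM), and the classes lower in that order stayed at or below 53.5 CPM in each library.

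Microglia formed 2 clusters, a larger one of 1545 cells led by Ccl4, Atf3 and Ccl3 and a smaller one of 449 cells led by P2ry12 and Gpr34. H2-K1 in the larger cluster was at 454 and 406 CPM in WT and 461 and 407 CPM in Dp(10)2Yey. In the smaller cluster it was at 243 and 251 CPM in WT and 214 and 285 CPM in Dp(10)2Yey. Every library of the larger cluster lay above every library of the smaller one, and the same held for H2-D1 (504 ± 21 against 294 ± 36.5 CPM). H2-T23 was lower in the larger cluster in each library, at 134, 171, 146 and 173 CPM against 176, 195, 182 and 211 CPM. B2m overlapped between the clusters (1866 ± 226 and 1669 ± 172 CPM). Cd74 was at 43.2 ± 4.37 CPM in the larger and 11.1 ± 7.44 CPM in the smaller cluster. H2-DMb1 was lower in the larger cluster in each library, at 66.1, 80.8, 93.3 and 83.7 CPM against 127, 92.1, 95.7 and 103 CPM. H2-DMa overlapped between the clusters. The clusters were drawn from other genes of the same cells, so these are descriptions without a test.

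The share of cells with a UMI depends on depth, which is given beside it, and its order differs from that of the levels. Of microglia, 64.6, 67.9, 76.3 and 71.6% held an H2-K1 UMI in WT replicates 1 and 2 and Dp(10)2Yey replicates 1 and 2, 70.1 ± 5.01% (SD, n = 4), at median depths of 3580 to 4419 UMIs. The 95% Wilson intervals together span 59.2% to 80.3%. Among oligodendrocytes the share was 7.92 ± 1.87% (intervals 2.7% to 13.9%) at 4360 to 5046.5 UMIs, and among neurons it was 1.35 ± 1.89% (intervals 0% to 9.84%) at 1203.5 to 2092 UMIs. Endothelial cells reached 61 ± 2.84% (intervals 44.2% to 76.2%) at only 1705.5 to 2173.5 UMIs. Thinning to 1000 UMIs left out shallower cells, and in WT replicate 1 it kept 76 of 143 astrocytes and 33 of 50 neurons. Among cells so thinned, 31.7 ± 2.03% of microglia, 40.8 ± 9.62% of endothelial cells and 10.9 ± 2.79% of astrocytes held an H2-K1 UMI. For oligodendrocytes and neurons the thinned shares were 2 ± 0.56% and 0.618 ± 1.24%. B2m was detected in 96.5 ± 1.36% of microglia (intervals 91.4% to 98.7%), 12.4 ± 1.68% of oligodendrocytes (intervals 6.68% to 19.1%) and 14.3 ± 2.33% of neurons (intervals 5.62% to 25.5%). Thinned, these B2m shares were 80.7 ± 4.7%, 4.86 ± 2.28% and 7.79 ± 4.58%. Of oligodendrocytes, 27.6 and 33% in WT and 42.8 and 36.7% in Dp(10)2Yey held a UMI of the 17 microglia markers. Of neurons, 16 and 25.5% in WT and 28.2 and 34% in Dp(10)2Yey did. The part of such RNA in the B2m shares was not tested.

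Apart from H2-DMa and H2-DMb1, class II RNA lay in very few cells. The class II chains H2-Aa, H2-Ab1 and H2-Eb1 and the invariant chain Cd74, which holds the groove until a peptide is loaded, had 2805 UMIs in all, and 5914 of the 6242 cells had 0 of them. The 23 cells with at least 10 such UMIs held 2354 of them, 83.9%. WT replicates 1 and 2 had 5 and 7 of these cells, with 175 of 242 and 311 of 418 UMIs in them, and Dp(10)2Yey replicates 1 and 2 had 3 and 8 of them, with 190 of 273 and 1678 of 1872 UMIs. Dp(10)2Yey replicate 2 thus held more of these UMIs than the other 3 libraries together. Where cells are chosen or described one by one below, class II UMIs are those of these 4 genes. By class, 12 of the 23 cells were in the S100a9-Pf4 cluster (1 and 3 in WT, 1 and 7 in Dp(10)2Yey), 4 in the low-RNA cluster (1 and 0 in WT, 2 and 1 in Dp(10)2Yey), 4 among T and NK cells (3 and 1 in WT), 2 in a cluster led by Mgp and 1 among microglia. Scrublet called none of the 23 as a doublet.

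The cells richest in class II differed in the markers they carried. The top 2, both in the S100a9-Pf4 cluster of Dp(10)2Yey replicate 2, held 632 and 573 UMIs of the 4 genes among 10932 and 10168 UMIs. In them 4 and 6 of 13 dendritic cell markers were detected, Cd209a, Itgax and Napsa in both, with 33 and 46 UMIs. The first also carried 10 of 17 microglia markers with 80 UMIs and 6 of 15 border macrophage markers with 14 UMIs, and the second 4 of each with 10 UMIs each. Both carried 3 of 13 monocyte markers too, with 30 and 23 UMIs. The next cell, of the same library, held 194 class II UMIs with 1 dendritic cell marker and 10 microglia markers with 147 UMIs. The cell with 145 class II UMIs, in WT replicate 2, carried both 7 border macrophage markers with 44 UMIs and 6 microglia markers with 73 UMIs. Among the T and NK cells, the 3 cells of WT replicate 1 held 62, 41 and 37 class II UMIs with 10, 10 and 8 of 12 B cell markers, and the cell of WT replicate 2 held 44 with 9 of them. All 4 had 0 UMIs of the 15 T and NK cell markers. In the low-RNA cluster of Dp(10)2Yey replicate 1, the cells with 62 and 58 class II UMIs carried 8 B cell markers each. A cell of the S100a9-Pf4 cluster in Dp(10)2Yey replicate 2 held 21 class II UMIs beside 11 B cell markers and 1743 UMIs of 13 neutrophil markers. Single cells were singled out here by their class II counts and no test was made of them.

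**Figure D3:**
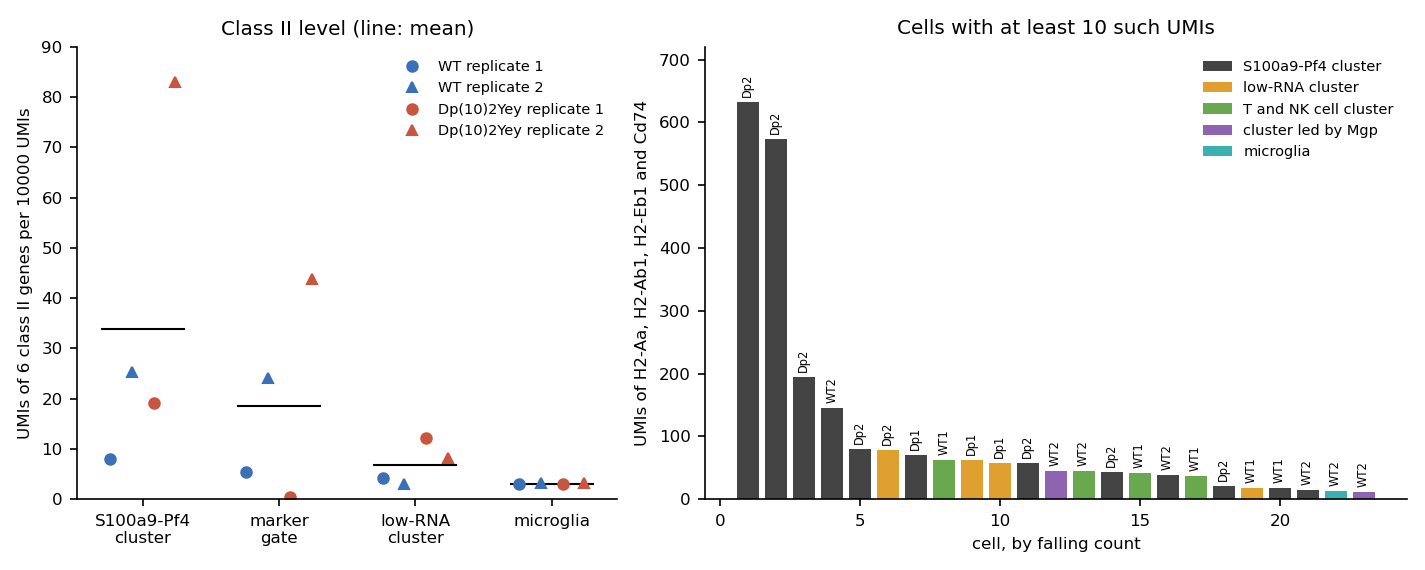
Left, UMIs of the 6 class II genes per 10000 UMIs in the S100a9-Pf4 cluster, the border macrophage marker gate, the low-RNA cluster and microglia, 1 point per library. Right, bars of the UMIs of H2-Aa, H2-Ab1, H2-Eb1 and Cd74 in each of the 23 cells with at least 10 of them, colored by class. The Dp(10)2Yey replicate 2 point of the S100a9-Pf4 cluster lies at 83.0, and 2 bars reach 632 and 573 UMIs.

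In the S100a9-Pf4 cluster the 6 class II genes together made up 8.01 and 25.3 of 10000 UMIs in WT and 19.2 and 83.0 of 10000 in Dp(10)2Yey. Dp(10)2Yey replicate 2 was far above the other 3 libraries, and Dp(10)2Yey replicate 1 lay between the WT values. The means were 16.6 ± 12.2 in WT and 51.1 ± 45.1 in Dp(10)2Yey (SD, n = 2), and the difference of 34.5 gave p = 0.67 in a two-sided exact permutation test, which with 2 against 2 libraries cannot go below 0.33. Without Dp(10)2Yey replicate 2 the difference was 2.6, and without Dp(10)2Yey replicate 1 it was 66.3. Removing the 2 cells with over 500 class II UMIs, a choice made after seeing the data, left 24.3 in Dp(10)2Yey replicate 2 and a difference of 5.15. With all cells of at least 10 class II UMIs removed, also chosen after seeing the data, the levels were 3.04 and 0.987 in WT and 2.91 and 2.38 in Dp(10)2Yey. With all variable genes in the clustering the cluster took in more of these cells in each library (5 in place of 1 and 4 in place of 3 in WT, 3 in place of 1 and 8 in place of 7 in Dp(10)2Yey), and the levels were 55.7 and 37.3 in WT and 53.2 and 97.8 in Dp(10)2Yey, a difference of 29.0. At median depths of 1403, 2251, 1936.5 and 3125 UMIs, 16 of 19, 22 of 27, 13 of 16 and 40 of 55 cells of the cluster had 0 UMIs of the 4 class II genes above.

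Per 10000 UMIs of this cluster, markers of neutrophils, monocytes, dendritic cells and B cells were higher in both Dp(10)2Yey than in both WT libraries. Those of microglia and of border macrophages were lower in both Dp(10)2Yey libraries. All 17 microglia markers were detected in each library, at 315 and 289 of 10000 UMIs in WT and 243 and 245 in Dp(10)2Yey, with C1qa the most abundant. Of 14 neutrophil markers, WT replicate 1 had 0 and WT replicate 2 had 2 detected, with 0 and 8 UMIs and both S100a8 and S100a9 at 0, while the Dp(10)2Yey libraries had 11 and 13 detected with 1736 and 2579 UMIs, S100a9 the most abundant with 943 and 1033. In Dp(10)2Yey replicate 2, 1743 of these UMIs came from 1 cell, the one given above with 11 B cell markers. Of 13 monocyte markers 0 and 1 were detected in WT, with 0 and 2 UMIs, and 9 and 9 in Dp(10)2Yey, with 136 and 111 UMIs, led by Plac8 and S100a4. All 15 border macrophage markers were detected in each library, at 129 and 120.1 of 10000 UMIs in WT and 43.3 and 106 in Dp(10)2Yey, below the microglia markers in every library, and Pf4 was the most abundant. The 13 dendritic cell markers summed to 1.48 and 6.35 of 10000 UMIs in WT and 6.78 and 10.4 in Dp(10)2Yey, with Xcr1, Clec9a and Ccr7 at 0 in all 4 libraries. The 12 B cell markers summed to 0.593 and 2.04 of 10000 UMIs in WT and 2.41 and 6.7 in Dp(10)2Yey, from 2, 17, 11 and 136 UMIs, 104 of the last in that same cell. The 15 T and NK cell markers came to 0 and 0.12 of 10000 UMIs in WT and 0 and 0.886 in Dp(10)2Yey, with overlap. The part of these markers in the class II levels was not tested.

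A gate on border macrophage markers gives a second view of these cells. It took cells with at least 2 of the 8 markers Mrc1, Pf4, Cd163, F13a1, Lyve1, Cbr2, Ms4a7 and Stab1 and no Tmem119 or S100a9 UMI. It held 97 cells, 17 and 24 in WT and 9 and 47 in Dp(10)2Yey, and 87 of them lay in the S100a9-Pf4 cluster. Their class II level was 5.35 and 24.2 of 10000 UMIs in WT and 0.447 and 43.8 of 10000 in Dp(10)2Yey. The Dp(10)2Yey libraries were thus the lowest and the highest, and the difference of 7.33 gave p = 1.0 (two-sided exact permutation test). Gated cells with a Lyve1 UMI, a marker of part of the border macrophages, numbered 29, at a median depth of 2844. Of these, 3 had a UMI of the 4 class II genes, 17 UMIs in all or 1.55 of 10000. In WT replicate 2, 1 cell held 14 of the 17 UMIs. Without it the level would be 0.294 of 10000 (chosen after seeing the data). The 68 gated cells without a Lyve1 UMI had a median depth of 1890. They included 10 cells with a UMI of the 4 class II genes, 963 UMIs in all or 44.1 of 10000. By library these came to 6.06 and 38 of 10000 in WT and 0 and 63.7 in Dp(10)2Yey, and 761 of the 963 UMIs were in Dp(10)2Yey replicate 2. The cell with 632 class II UMIs is among them, and without it the 68 cells would stand at 16 of 10000 (chosen after seeing the data).

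The share of cells of the S100a9-Pf4 cluster with a UMI of each of Cd74, H2-Aa and H2-Ab1 was 5.26% (95% Wilson interval 0.935 to 24.6%) and 7.41% (2.06 to 23.4%) in WT, and 6.25% (1.11 to 28.3%) and 12.7% (6.3 to 24%) in Dp(10)2Yey. All 4 intervals overlap, and the difference of 3.15 percentage points gave p = 0.67 in the exact permutation test. It turned to -1.21 with all variable genes in the clustering, where the shares were 23.8 and 13% in WT and 18.8 and 15.7% in Dp(10)2Yey, and to -3.92 in the gate, where they were 5.88 and 8.33% in WT and 0 and 6.38% in Dp(10)2Yey (both added after seeing the data). Without Dp(10)2Yey replicate 2 it was -0.0853 and without Dp(10)2Yey replicate 1 it was 6.39. Thinned to 1000 UMIs the shares were 0 and 5.26% in WT, of 11 and 19 cells, and 7.69 and 10.6% in Dp(10)2Yey, of 13 and 47 cells. The thinned difference of 6.53 percentage points gave p = 0.33 in the exact permutation test, the smallest it can give. Neurons had 0 such cells in each library, which allows shares of cells with these UMIs of up to 6.0, 2.13, 2.11 and 3.0%. At the depths given above such a limit holds for cells with a UMI and not for cells that express the genes. Oligodendrocytes also had 0, with limits of 2.36, 0.962, 1.35 and 0.974%. Among microglia 1 cell, in WT replicate 1, held all 3 (0.322%), and the limits in the other libraries were 0.563, 0.809 and 0.385%.

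By member, Cd74 in the S100a9-Pf4 cluster stood at 326 and 1102 CPM in WT and 831 and 3472 CPM in Dp(10)2Yey. Dp(10)2Yey replicate 2 was the highest and WT replicate 1 the lowest. H2-Aa, the I-A alpha chain, stood at 119 and 479 CPM in WT and 219 and 1492 CPM in Dp(10)2Yey. H2-Ab1, its beta chain partner, stood at 59.3 and 383 CPM in WT and 350.0 and 1581 CPM in Dp(10)2Yey. H2-Eb1, the I-E beta chain, stood at 148 and 431 CPM in WT and 284 and 1433 CPM in Dp(10)2Yey. In each of these genes WT replicate 2 lay above Dp(10)2Yey replicate 1, so the genotypes overlapped. With the cells of at least 10 class II UMIs removed, Cd74 was at 60.7 and 14.1 CPM in WT and 157 and 100.2 CPM in Dp(10)2Yey. H2-DMa and H2-DMb1 encode the DM molecule, which helps peptides into the class II groove. H2-DMa stood at 119 and 95.8 CPM in WT and 153 and 192 CPM in Dp(10)2Yey in this cluster, and H2-DMb1 at 29.7 and 35.9 and 87.5 and 128 CPM, both from at most 39 UMIs per library.

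Microglia carried the DM genes and little of the class II chains. H2-DMa was at 172 and 186 CPM in WT and 166 and 192 CPM in Dp(10)2Yey microglia. H2-DMb1 was at 75.9 and 82.6 CPM in WT and 93.7 and 88.3 CPM in Dp(10)2Yey, with both Dp(10)2Yey values the higher. Cd74 was at 44.7 and 35.6 CPM in WT and 35 and 35.3 CPM in Dp(10)2Yey, where WT replicate 1 stood above the other 3. H2-Ab1 reached 5.83 ± 1.41 CPM and H2-Eb1 0.997 ± 0.323 CPM (SD, n = 4), and H2-Aa had UMIs in WT replicate 1 alone, 2 of them. An H2-DMa UMI was found in 47.9 ± 3.61% of microglia (intervals 37.4% to 55.3%), against 1.03 ± 0.806% of the deeper oligodendrocytes (intervals 0% to 4.13%) and 4.45 ± 3.25% of neurons (intervals 0.354% to 15%). After thinning the shares were 16.6 ± 1.11%, 0.117 ± 0.234% and 0.695 ± 0.813%. All 6 class II genes made up 3.0 and 3.13 of 10000 UMIs in WT and 3.0 and 3.22 in Dp(10)2Yey microglia, of which the DM genes were 2.47, 2.68, 2.6 and 2.81. In the low-RNA cluster the 6 genes made up 4.24 and 2.91 of 10000 UMIs in WT and 12.2 and 8.12 in Dp(10)2Yey. The means over 4 libraries were thus 33.9 in the S100a9-Pf4 cluster, 18.4 in the gate, 6.87 in the low-RNA cluster and 3.09 in microglia. The ranges of the S100a9-Pf4 cluster, the gate and the low-RNA cluster overlapped each other. That of microglia lay below that of the S100a9-Pf4 cluster and within those of the gate and the low-RNA cluster.

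Genotypes were compared on UMIs summed per class and library with the edgeR quasi-likelihood test, with Benjamini-Hochberg adjustment over all genes tested in a class and an adjusted p under 0.01 as the threshold. The named classes, the clusters named by leading genes and the sum of all cells were fitted on their own where each library had at least 10 cells. Within classes 42 pairs of a member and a class passed the filter on low counts, and 1 was past the threshold, Cd74 in the low-RNA cluster. In that cluster 9 of the 10 members were tested, and 0.145% of its 1379 genes were past the threshold. In the S100a9-Pf4 cluster 8 members were tested and 0 passed, against 0.551% of 908 genes, and in microglia 8 were tested and 0 passed, against 0.011% of 9067 genes. The counts were 0 of 3 in astrocytes (0.0913% of 6573 genes), 0 of 1 in immature neurons (0.0575% of 3480) and 0 of 3 in oligodendrocyte precursors (0.0277% of 7232). In endothelial cells (4 members tested), ependymal cells (2), neurons (1), oligodendrocytes (3) and the cluster led by Ttr (0), as in the sum of all cells (10), 0 members passed and 0% of the genes tested did. Of the 42 pairs, 9 (21.4%) had an unadjusted p under 0.05, against 3.64% of the 50289 tests of all genes in these classes. They were 3 class II genes in the low-RNA cluster and 3 in the S100a9-Pf4 cluster. The others were 2 class I genes in oligodendrocytes and 1 in immature neurons. In both clusters most class II UMIs came from the same few cells, so the 9 pairs are not independent of each other. DESeq2, run on the same sums without that filter, called 0 of 110 pairs, and 6 (5.45%) had an unadjusted p under 0.05. The 110 include pairs with 0 UMIs in every library, such as Cd74 in astrocytes, which have no test. Of its 149750 tests of all genes, which leave such cases out, 0.282% had an unadjusted p under 0.05, so the percentages have unlike bases. In the sum of all cells 0 members had an unadjusted p under 0.05 by either tool, where edgeR gave 376 genes and DESeq2 166, and DESeq2 called 3 genes there (0.0147% of 20419), none of them a member. The log2 fold changes in that sum were 0.80 (SE 0.44) for Cd74, 0.95 (SE 0.51) for H2-Aa, 1.29 (SE 0.61) for H2-Ab1 and 0.97 (SE 0.59) for H2-Eb1, and within 0.22 of 0 for the other members. Each of these 4 genes was lower in Dp(10)2Yey replicate 1 than in both WT libraries (Cd74 at 44.2 and 32.6 CPM in WT and 30.2 and 100.3 CPM in Dp(10)2Yey), and without Dp(10)2Yey replicate 2 the fold changes turned to -0.29, -0.30, -0.41 and -0.61. Without a filter on low counts (added after seeing the data) these 4 were past the threshold, at 0.82, 0.97, 1.3 and 0.99, against 0.353% of 20419 genes. H2-Ab1 was past it without Dp(10)2Yey replicate 1, at 1.98, against 0.0275% of 14567 genes. A fit with a library left out has 1 library in 1 genotype and takes its spread from the other genotype alone, so a call in it is no sign of stability.

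For class I in microglia the fitted log2 fold changes of Dp(10)2Yey over WT were near 0, at -0.01 (SE 0.14) for H2-K1, -0.04 (SE 0.13) for H2-D1, -0.06 (SE 0.14) for B2m and 0.04 (SE 0.16) for H2-T23. Those of the 4 class II genes tested there were -0.02 (SE 0.14) for H2-DMa, 0.16 (SE 0.16) for H2-DMb1, -0.18 (SE 0.20) for Cd74 and -0.47 (SE 0.44) for H2-Ab1. The median over the 8 members was -0.03, and over all genes of the class it was 0. In endothelial cells the class I fold changes were -0.04 (SE 0.21), -0.02 (SE 0.22), -0.05 (SE 0.24) and 0.14 (SE 0.25) for H2-K1, H2-D1, B2m and H2-T23, with a median of -0.03 against 0.01 for all genes. All of these lay within 2 SE of 0. The B2m fold changes became 0.14 in microglia and 0.20 in endothelial cells without Dp(10)2Yey replicate 2. The plot of fold changes shows every pair tested.

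**Figure D4:**
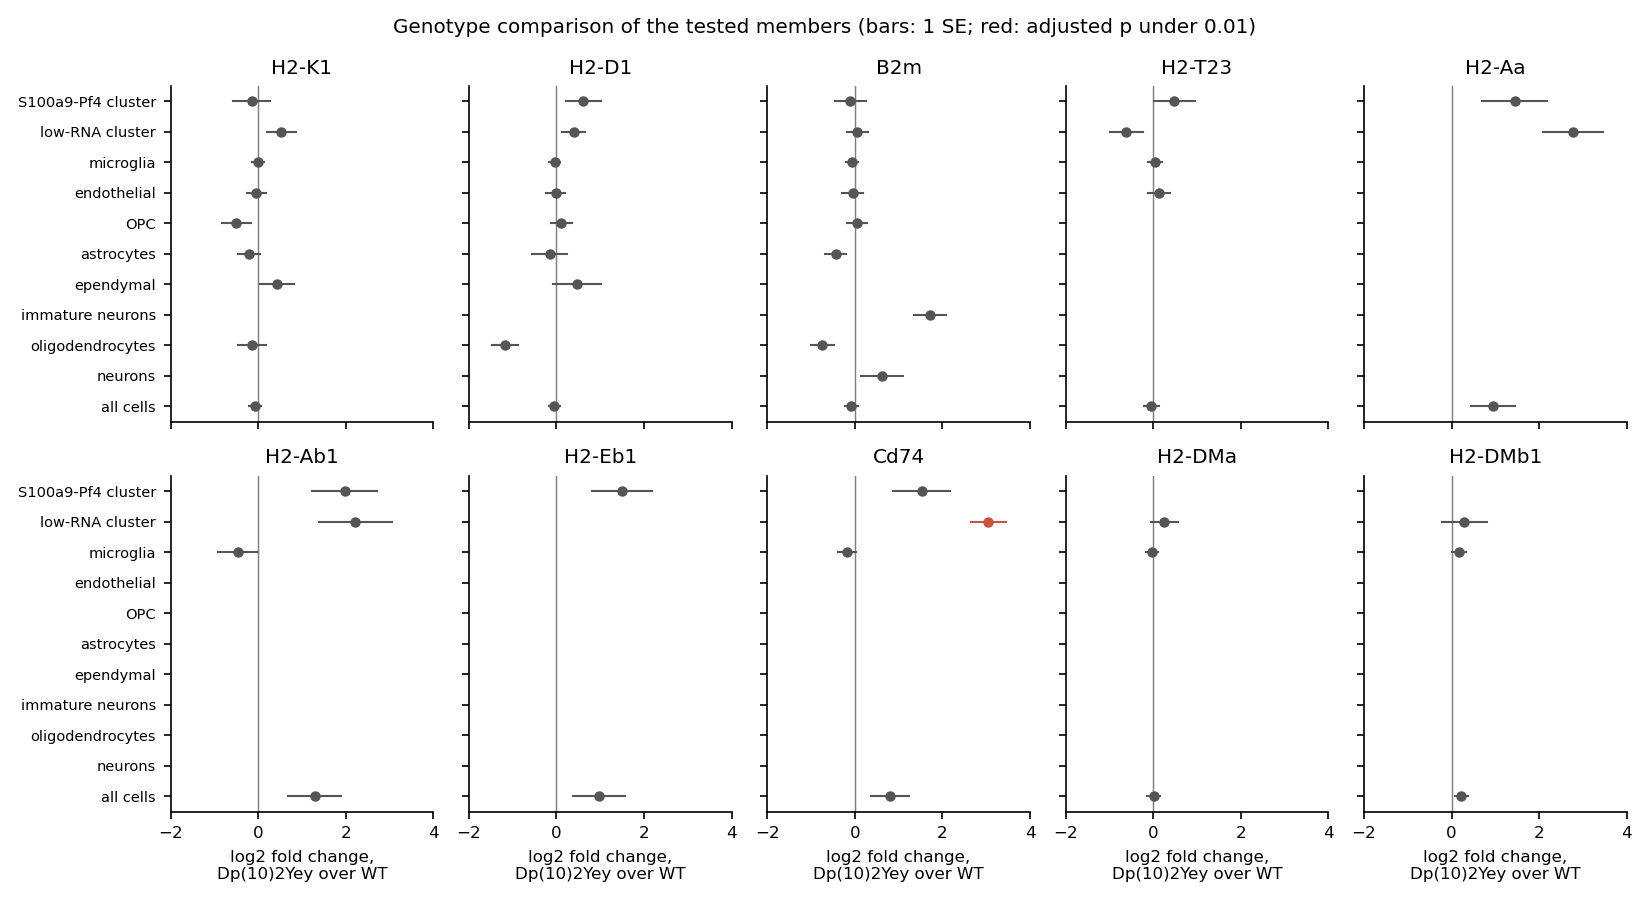
Log2 fold change of Dp(10)2Yey over WT for each member and class tested with edgeR, with bars of ±1 SE. Red marks an adjusted p under 0.01, which holds for Cd74 in the low-RNA cluster at 3.05, and the class I genes in microglia lie within 0.06 of 0.

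Cd74 in the low-RNA cluster stood at 54.1 and 28.4 CPM in WT and 393 and 303 CPM in Dp(10)2Yey. Both Dp(10)2Yey libraries were above both WT libraries. The counts behind these values were 6, 4, 54 and 53 UMIs. The log2 fold change was 3.05 (SE 0.40) with an adjusted p of 7.37e-06 (edgeR), and it was 2.57 to 3.54 with each library left out in turn. It was past the threshold in each of these fits, which have 1 library in 1 genotype, and so were 0.581, 0.305, 0.706 and 0.311% of all genes tested without WT replicates 1 and 2 and Dp(10)2Yey replicates 1 and 2. Of these UMIs, 6 and 0 in WT and 52 and 43 in Dp(10)2Yey came from the 4 cells with at least 10 class II UMIs. Elsewhere in the cluster 0, 4, 2 and 10 UMIs remained, or 0 and 28.4 CPM in WT and 15 and 57.5 CPM in Dp(10)2Yey. With those cells removed Cd74 did not pass the filter on low counts and so was not tested, and the same held when the MHC genes took part in the clustering. With DESeq2 it was tested and not past the threshold (log2 fold change 3.03, adjusted p of 0.555). Both such cells of Dp(10)2Yey replicate 1 carried B cell markers, as given above. The cells of Dp(10)2Yey replicate 2 and WT replicate 1 had 0 B cell marker UMIs, and 25 and 16 microglia marker UMIs. The WT cells with 8 to 10 B cell markers lay among the T and NK cells and not in this cluster. They held 26, 17 and 18 Cd74 UMIs in WT replicate 1 and 18 in WT replicate 2. The part of the 4 cells of the low-RNA cluster in the difference between genotypes was not tested. Nor was that of the cluster into which cells with B cell markers fell. H2-Aa in the low-RNA cluster stood at 54.1 and 0 CPM in WT and 284 and 80.0 CPM in Dp(10)2Yey. Its log2 fold change was 2.78 (SE 0.68), with an adjusted p of 0.0681 (edgeR). Its fold change was past the threshold when Dp(10)2Yey replicate 2 was left out (3.51) and when WT replicate 1 was (7.75, where the WT library left has 0 UMIs and the value depends on the prior count of the fit). It also was with the replicate number as a block (2.81, adjusted p of 0.000383, against 0.508% of all genes) and without a filter on low counts (2.79, adjusted p of 0.000255, against 0.0818%). H2-Ab1 stood at 36.1 and 0 CPM in WT and 87.4 and 74.3 CPM in Dp(10)2Yey (log2 fold change 2.22 (SE 0.84), adjusted p of 0.944). Cd74, H2-Aa and H2-Ab1 passed the filter on low counts here through the Dp(10)2Yey libraries alone. That they were tested thus depended on the genotype in which they are high. H2-Eb1, at 36.1 and 7.1 CPM in WT and 131 and 57.2 CPM in Dp(10)2Yey, did not pass the filter. The median over the 9 members tested was 0.39, against 0.01 over all genes of the cluster, and as it includes these genes it is only a description.

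In the S100a9-Pf4 cluster the log2 fold changes were 1.53 (SE 0.65) for Cd74, 1.98 (SE 0.74) for H2-Ab1, 1.5 (SE 0.68) for H2-Eb1 and 1.44 (SE 0.75) for H2-Aa, with adjusted p of 0.825, 0.657, 0.877 and 0.904 (edgeR). Without Dp(10)2Yey replicate 1 all 4 were past the threshold, at 2.26, 2.70, 2.25 and 2.24, against 1.27% of 1571 genes. Without Dp(10)2Yey replicate 2 they were 0.06, 0.39, -0.22 and -0.66, and none was, against 4.04% of 916 genes. The values therefore depend on Dp(10)2Yey replicate 2, and no fit was made without its 2 cells richest in class II alone. H2-D1 stood at 771 and 875 CPM in WT and 1399.9 and 1157 CPM in Dp(10)2Yey in this cluster, both Dp(10)2Yey libraries the higher, with a log2 fold change of 0.61 (SE 0.40) and an adjusted p of 0.947. The median over the 8 members was 1.02, against -0.04 over all genes.

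B2m in immature neurons was at 57.4 and 46.2 CPM in WT and 184 and 150.4 CPM in Dp(10)2Yey, from 6, 10, 33 and 59 UMIs. The Dp(10)2Yey values were both higher than either WT value. The log2 fold change of 1.72 (SE 0.37) did not pass the threshold (adjusted p of 0.093, edgeR), and it was 1.53 to 1.85 with each library left out. Microglia RNA in these cells was also higher in both Dp(10)2Yey libraries, while within WT the replicate with more of it had the lower B2m. The 17 microglia markers had 8 and 137 UMIs in WT and 544 and 883 in Dp(10)2Yey, or 0.766 and 6.33 of 10000 UMIs in WT and 30.4 and 22.5 in Dp(10)2Yey. Of the markers 5, 16, 16 and 17 were detected, with Trem2, C1qb, Ccl4 and C1qa the most abundant in turn and 12 of them, among these Cx3cr1, P2ry12 and Tmem119, at 0 in WT replicate 1. Ctss, a protease of microglia, stood at 19.1 and 64.7 CPM in WT and 218 and 235 CPM in Dp(10)2Yey in the same cells (log2 fold change 2.24, adjusted p of 0.0366). In the immature neurons without any microglia marker UMI, B2m was at 47.0 and 13.1 CPM in WT and 12.9 and 30.6 CPM in Dp(10)2Yey. These values came from only 3, 2, 1 and 6 UMIs, and the genotypes overlapped. The part of microglia RNA in the B2m difference was not tested. The plot of B2m against microglia RNA places these libraries beside the other classes.

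**Figure D5:**
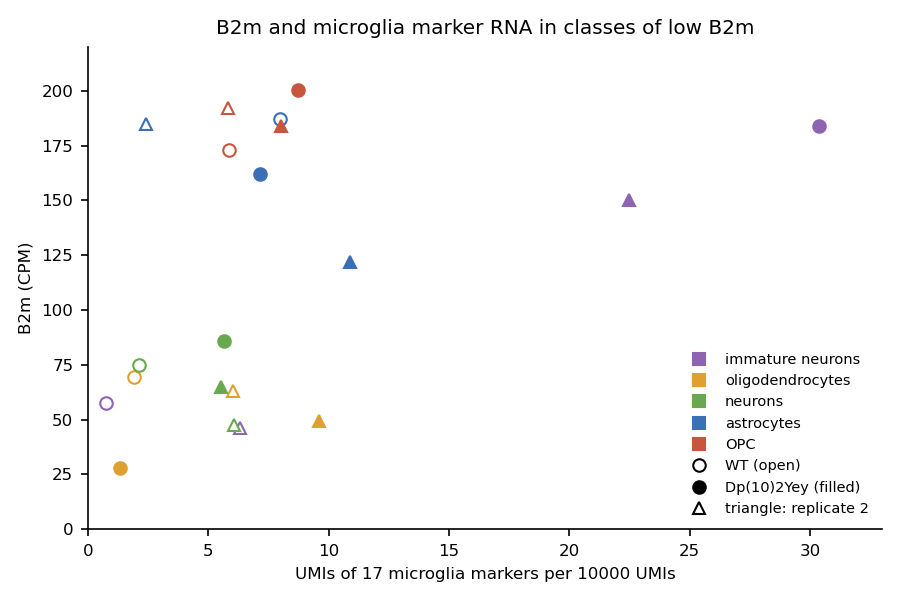
B2m in CPM against the summed UMIs of 17 microglia markers per 10000 UMIs, 1 point per class and library outside the microglia and immune clusters. Open points are WT, filled points are Dp(10)2Yey, and triangles mark replicate 2. The Dp(10)2Yey immature neurons lie at 30.4 and 22.5 on the x axis and at 184 and 150.4 CPM.

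Oligodendrocytes gave lower values in the Dp(10)2Yey libraries. H2-D1 was at 60.4 and 39.6 CPM in WT and 16.3 and 24.3 CPM in Dp(10)2Yey. B2m was at 69.6 and 63.2 CPM in WT and 27.7 and 49.3 CPM in Dp(10)2Yey. For both genes the genotypes did not overlap, and for H2-K1, at 25.6 and 20.1 CPM in WT and 17.1 and 22.6 CPM in Dp(10)2Yey, they did. The log2 fold change was -1.18 (SE 0.29) for H2-D1 and -0.74 (SE 0.26) for B2m, with adjusted p of 0.548 and 1 (edgeR), and the median over the 3 members tested was -0.74, against 0 over all genes. Without Dp(10)2Yey replicate 2 both were past the threshold, at -1.51 and -1.25, against 0.36% of 8610 genes. Microglia markers made up 1.92 and 6.03 of 10000 UMIs in the WT and 1.35 and 9.6 in the Dp(10)2Yey oligodendrocytes, with 17, 17, 16 and 17 of 17 detected. In oligodendrocytes without any microglia marker UMI, H2-D1 was at 75.1 and 21.1 CPM in WT and 24 and 19.4 CPM in Dp(10)2Yey, where the genotypes overlapped. B2m in these cells was at 87.6 and 44.9 CPM in WT and 17.6 and 16.3 CPM in Dp(10)2Yey, where they did not. In oligodendrocytes without any endothelial marker UMI, B2m was at 43 and 65.2 CPM in WT and 20.2 and 45.2 CPM in Dp(10)2Yey, with overlap. These values came from 6, 29, 5 and 17 B2m UMIs. Bsg made up 92 of 155 and 274 of 405 endothelial marker UMIs in WT oligodendrocytes and 220 of 348 and 341 of 487 in Dp(10)2Yey. Cdh5, Esam and Ptprb were at 0 in each library. In WT replicate 1 the cells left were 55 of 127, with 139383 of 546326 UMIs. The part of endothelial RNA in the B2m values was not tested.

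The other genes of the pathway were taken from lists of loading, regulation and signal genes, and the genes named are among the highest 3 of each list in microglia or in the S100a9-Pf4 cluster. In microglia 2.92% of all genes tested had an unadjusted p under 0.05. Of the 14 genes of class I loading and peptide supply, 13 were tested in microglia and in the sum of all cells, 0 passed in either (0 and 0 at an unadjusted p under 0.05) and the medians of the log2 fold change were -0.03 and 0.02. Calr, a chaperone of the loading complex, was at 708 and 505 CPM in WT and 639 and 474 CPM in Dp(10)2Yey microglia. Pdia3, another member of that complex, was at 339 and 369 CPM in WT and 356 and 403 CPM in Dp(10)2Yey microglia. Both genes overlapped between the genotypes. Canx, a chaperone of new heavy chains, averaged 299.5 ± 16.5 CPM in microglia and 361 ± 136 CPM in the S100a9-Pf4 cluster. Psme1, a subunit of the proteasome activator, averaged 312 ± 29.9 CPM in the S100a9-Pf4 cluster.

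Of 24 further class I heavy chain and class I-like genes 19 are in the files, and 10 were tested in microglia, with 0 past the threshold, 0 at an unadjusted p under 0.05 and a median of -0.19. Fcgrt, the heavy chain of the neonatal Fc receptor, which also pairs with B2m, was at 525 and 397 CPM in WT and 448 and 443 CPM in Dp(10)2Yey endothelial cells. It averaged 453 ± 53.1 CPM there and 60.6 ± 8.28 CPM in microglia, without overlap. Hfe, which pairs with B2m in the control of iron, averaged 73.6 ± 6.56 CPM in microglia, and H2-M3 averaged 38.2 ± 7.11 CPM. H2-Q10 had UMIs in the S100a9-Pf4 cluster in the Dp(10)2Yey libraries alone, at 175 and 14.8 CPM. The cluster held only 33711 and 83465 UMIs in WT, against 45718 and 203052 in Dp(10)2Yey. No genotype test is given for this gene.

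Of 21 genes of class II regulation and loading 17 are in the files, and 14 were tested in microglia, with 0 past the threshold, 0 at an unadjusted p under 0.05 and a median of 0.01. Ctss, the protease that trims the invariant chain, was at 4525 and 6057 CPM in WT and 5272 and 5999 CPM in Dp(10)2Yey microglia. Replicate 1 of each genotype was below replicate 2. Lgmn averaged 2136 ± 62.6 CPM and Ctsl 1282 ± 59 CPM in microglia, and Ctsb averaged 2159 ± 836 CPM in the S100a9-Pf4 cluster. In immature neurons 3 of the 7 genes tested had an unadjusted p under 0.05, with a median of 0.42, against 4.48% of all 3480 genes tested there and beside the microglia markers given above. Of 13 genes of the interferon signal to MHC, 12 were tested in microglia, with 0 past the threshold, 1 at an unadjusted p under 0.05 and a median of -0.06. Ifngr1, a chain of the interferon gamma receptor, was at 439 and 459 CPM in WT and 400.1 and 436 CPM in Dp(10)2Yey microglia. Irf8, a transcription factor of myeloid cells, averaged 500.4 ± 25.8 CPM and Irf2 198 ± 23.9 CPM in microglia. Over these 4 lists edgeR called 0 genes in every class tested and in the sum of all cells, where 2 of 13 interferon genes had an unadjusted p under 0.05, against 2.71% of all genes. Of the genes of class I loading, 2 of 7 did in oligodendrocytes (2.66% of all genes) and 2 of 8 in oligodendrocyte precursors (4.37%), and in the other classes not given above at most 1 gene of a list did.

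Across 51 sums of a class and a library with at least 10 cells, which share libraries and differ in depth, the members fell into groups by Pearson's r of log2(CPM + 10). H2-K1 and H2-D1 gave r = 0.91, H2-D1 and B2m 0.90, and H2-K1 and B2m 0.80. H2-Aa gave 0.97 with H2-Ab1, 0.97 with H2-Eb1 and 0.94 with Cd74. H2-DMa gave 0.92 with H2-DMb1 and 0.62 with H2-Aa, and gave 0.81 with the class I gene B2m and 0.80 with Cd74. H2-DMb1 gave 0.78 with B2m and 0.83 with Cd74. Among 11907 other genes, those most like H2-K1 were Trim12a (0.86), Tapbp (0.85), Rap1b (0.84), Myh9 (0.84) and Akap13 (0.83). For B2m they included Psmb8 (0.94), Tgfb1 (0.92), Entpd1 (0.92) and Akap13 (0.91). For the mean of the 6 class II genes they were Cxcl16 (0.87), Glipr1 (0.86), Tgfbi (0.86), Lyz2 (0.84) and Fcgr2b (0.84).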

How the data were processed

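Hippocampal cells of 2 WT and 2 Dp(10)2Yey mice were measured, 1 library per mouse. The authors deposited raw UMI counts per gene and cell barcode, made with Cell Ranger 3.0.2 against mm10 according to the submitters' processing notes, as whole numbers without normalization. Barcodes had at least 500 UMIs. Following the study, cells under 200 genes were dropped and clustering used genes found in more than 3 cells. Barcodes with over 10% globin UMIs were removed, where the study removed clusters high in a globin gene. Seurat 5.3.0 in R 4.3.3 clustered the cells with canonical correlation analysis (2000 variable genes without MHC genes, 50 dimensions, resolution 0.2). A planned second clustering of the S100a9-Pf4 cluster separated its cells by depth and was not used. Doublets were called with Scrublet in scanpy 1.11.5. UMIs summed per class and library were tested with edgeR 4.0.16 (TMM, filterByExpr, quasi-likelihood, no block), called at an adjusted p under 0.01 by Benjamini-Hochberg, where each library had at least 10 cells of the class. Single values per library were compared by exact permutation in scipy 1.17.1. Other work used Python 3.11.15, numpy 2.4.6, pandas 2.3.3 and matplotlib 3.10.9.

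The genes named are the 10 members, genes of 4 pathway lists that were called in a class or were among the highest 3 in microglia or in the S100a9-Pf4 cluster, the 5 genes most like H2-K1, B2m and the class II mean among genes with at least 100 UMIs, and markers of the cell types. Of the genes that this rule takes in, 2 are not reported here. Single cells and microglia cluster comparisons beyond this rule were chosen after their values were seen. The list of members and the other lists were drawn up with earlier results of these data known. Alternatives were DESeq2 1.42.0, RLE scaling, tests of all genes without a filter, a replicate block, an adjusted p under 0.05, each library left out, doublets removed, cells with over 20% mitochondrial UMIs removed, clustering with all variable genes, a resolution of 0.5, a marker gate and thinning to 1000 UMIs. Removing cells with at least 10, or 2 cells with over 500, class II UMIs, and no filter for the sum of all cells, and the gate and the clustering with all variable genes for the share of cells and the mean level of the cluster, were added after seeing the data.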

Additional observations from a re-analysis of the deposited data

Results flagged for a closer look

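For 5 members the Dp(10)2Yey values were both higher than the WT values in 1 class and both lower in another. The share of all genes with such a pair of classes was not computed, so the count is not a result about the members. With 2 libraries per genotype such an order is common. In the sum of all cells, 12.7% of 11877 genes outside the duplicated segment were higher in both Dp(10)2Yey than in both WT libraries. The differences between the log2 fold changes of the paired classes were not tested. For H2-K1 the low-RNA cluster exceeded oligodendrocyte precursors by 1.03. For H2-D1 the low-RNA cluster exceeded oligodendrocytes by 1.57, and the S100a9-Pf4 cluster exceeded them by 1.79. For B2m immature neurons, with the microglia markers given with that result, exceeded astrocytes by 2.16 and oligodendrocytes by 2.46. In the low-RNA cluster H2-Ab1 exceeded its value in microglia by 2.69 and Cd74 by 3.23, where most UMIs came from 4 cells rich in class II.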

How the results depend on the processing

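Of 524 values of single members and classes under 13 alternatives, 505 kept their direction, or a change within 1 SE, and their side of the threshold, 10 passed the threshold in addition, 1 no longer passed (Cd74 in the low-RNA cluster with DESeq2, not tested in 2 other alternatives) and 8 changed sign, all with a library left out. Over the libraries left out, the log2 fold change of B2m ranged from -0.37 to 0.20 in endothelial cells, from -0.29 to 0.14 in microglia and from -0.22 to 0.25 in the low-RNA cluster. In ependymal cells H2-D1 ranged from -0.71 (-0.13 without WT replicate 1) to 1.67 and H2-K1 from -0.12 to 0.59. In the S100a9-Pf4 cluster H2-Aa ranged from -0.66 to 2.91 and H2-Eb1 from -0.22 to 2.58. The count of member and class pairs past the threshold was 1, and 0 with DESeq2, 2 without a filter on low counts, 0 with all variable genes in the clustering and 0 with cells of at least 10 class II UMIs removed (chosen after seeing the data), where Cd74 in the low-RNA cluster fell below the filter in both, and 1 to 5 with each library left out. With the replicate number as a block the count of pairs was 2, against 0.508% of all genes of the low-RNA cluster. H2-Aa in that cluster was added (adjusted p of 0.000383, edgeR). The labels do not say that a number marks a day, and the log2 ratios of libraries with the same number gave r = 0.01 across 13876 genes in the sum of all cells and 0.16 across 9067 genes in microglia, genes not being independent replicates. In the sum of all cells the count was 0, also with the block and DESeq2, and 0 to 1 with each library left out. It was 4 without a filter on low counts (added after seeing the data), namely H2-Aa, H2-Ab1, H2-Eb1 and Cd74, against 0.353% of 20419 genes. Fits with a library left out have 1 library in 1 genotype. The class II difference ranged from 2.6 to 66.3 and the share difference from -0.0853 to 6.39 with each library left out. The share difference was -1.21 with all variable genes in the clustering and -3.92 in the gate, and the mean class II level of the S100a9-Pf4 cluster went from 33.9 to 61.0 of 10000 with all variable genes (added after seeing the data). The class I levels by class, as means over the libraries, kept within 1 SD with doublets or cells of high mitochondrial share removed. In neurons the mitochondrial cut moved Dp(10)2Yey replicate 1 from 99 to 67.5 CPM and WT replicate 2 from 74.5 to 90.8 CPM. The genotypes then overlapped in neurons. The cause of these changes was not tested. Depth limits what can be seen of class II, with 16 to 55 cells of the S100a9-Pf4 cluster per library, and 2 mice per genotype.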

Other observations

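The 26 T and NK cells held class I sums of 5002 and 5455 CPM in WT and 5739 and 6648 CPM in Dp(10)2Yey, from 6 and 3 cells in WT and 6 and 11 cells in Dp(10)2Yey. In WT, 3 of the 6 and 1 of the 3 cells had 0 UMIs of T and NK cell markers and 8 to 10 of 12 B cell markers. H2-K1 averaged 1613 ± 458 CPM there and B2m 2223 ± 655 CPM (SD, n = 4).

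The 39 barcodes removed for globin numbered 10 and 4 in WT and 5 and 20 in Dp(10)2Yey. They held 61 and 34 class I UMIs in WT and 35 and 117 in Dp(10)2Yey, or 1314, 789.5, 856 and 777 CPM. Their class II UMIs were 0 and 0 in WT and 3 and 3 in Dp(10)2Yey, all of them of H2-DMa and H2-DMb1.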
